A study of Mus musculus with 16 samples.

Results

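The 10 genes described here belong to the ATF4 branch of the integrated stress response. They were taken by name as the stress-response factors Atf4, Atf5, Atf3, Ddit3, Cebpb and Cebpg and the ATF4 targets Trib3, Chac1, Sesn2 and Asns, out of 55291 gene symbols in the deposited tables. No measured value entered the rule, but the genes were chosen with earlier results of these data known. All 10 were found, and all 10 passed the filter on low counts. RNA came from the spleens of male C57BL/6 mice, either wild type (WT) or lacking PKR (PKR KO), the kinase that the gene Eif2ak2 encodes. The mice had imiquimod (IMQ) cream, which activates Toll-like receptor 7 and is used to model psoriasis, on the shaved back every day and were sampled on days 0, 1, 2 and 5. The 8 groups of genotype and day held 2 libraries each, 16 in all. Every library pooled spleen cells of 2 mice after lysis of red cells, so each n below is 2 libraries per group and the spread between the mice of a pool was not measured. The labels give neither the age of the mice nor the part of Eif2ak2 that the knockout removes. No group given cream without imiquimod was analysed here, so imiquimod, the cream, the handling and the day of sampling cannot be told apart in any change from day 0.

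As background, several kinases, PKR among them, phosphorylate the translation factor eIF2alpha under stress. General translation then falls, while the Atf4 messenger RNA is translated more, since short reading frames in its leader hold it back in unstressed cells. ATF4 protein pairs with C/EBP proteins and binds C/EBP-ATF response elements in genes for amino acid synthesis, amino acid transport, redox balance and cell death. Much of the control of ATF4 lies in translation, which RNA levels do not measure. In the spleen the same response is known from activated lymphocytes, which need amino acids to grow. Plasma cells of the spleen fold large amounts of secreted protein.

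The sequence that ATF4 dimers are known to bind was looked for first, because it is the feature by which a gene can respond to ATF4 directly. The motif TGATGNAA, the core of the C/EBP-ATF response element, was searched on both strands of RefSeq promoters (GRCm38.p6, 300 bases from 250 before to 50 after the annotated start). All 10 genes had a promoter in the table, and Atf5 had 2. A match lay in the promoters of 4 of the 10 genes, Atf3, Trib3, Chac1 and Asns, against 4.51% of the 27025 genes with a promoter in the table and 3.97% of all 32851 promoters. The 4 windows follow, each 30 bases long and written 5′ to 3′ on the strand of its gene, with the 8 bases of the match in capitals.

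Atf3, chr1:191183425-191183454, - strand: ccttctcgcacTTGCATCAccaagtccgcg

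Chac1, chr2:119351038-119351067, + strand: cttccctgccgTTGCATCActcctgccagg

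Trib3, chr2:152344028-152344057, - strand: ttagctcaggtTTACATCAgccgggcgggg

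Asns, chr6:7693214-7693243, - strand: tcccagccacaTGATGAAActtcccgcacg

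Atf3 and Chac1 held the same 8 letters, and Trib3 differed from them at the free position N of the motif; in these 3 genes the motif reads along the opposite strand. In Asns it reads along the gene's own strand. Counted from the RefSeq start, with no position 0, the match covered bases -193 to -186 in Chac1, -110 to -103 in Atf3, -23 to -16 in Asns and 15 to 22 in Trib3. The counted Asns transcript starts 338 bases after that RefSeq start, and the counted Trib3 transcript 28 bases after it. No match lay in these windows of Atf4, Atf5, Ddit3, Cebpb, Cebpg or Sesn2, which says nothing of sequence outside them. A match describes the letters and does not show that ATF4 was bound there. On day 1, the changes from day 0 given below were 1.00 to 2.88 on the log2 scale in WT for the 4 genes with a match and -0.17 to 0.70 for the 6 without, and 1.22 to 3.50 and -0.41 to 1.80 in PKR KO. In WT the ranges with and without a match overlapped on day 2 (0.80 to 2.90 and -0.565 to 1.25) and on day 5 (-0.465 to 3.94 and -0.50 to 0.62). These ranges of so few genes are given as a description, with no test.

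Library totals ran from 35026754 to 67333830 fragments. Levels between groups are compared in CPM, fragments of the gene's counted transcript per 1000000 fragments of the library after scaling by a composition factor, and levels between genes in FPKM, the deposited values per length of transcript and size of library. The WT day 1 libraries stood apart, with composition factors of 1.204 and 1.195 against 0.933 to 1.07 in the other 14. The knockout was checked by Eif2ak2, although the labels do not say whether its RNA is lost. WT libraries held 24.9 and 26.6 CPM on day 0, then 101 and 96.1 on day 1, 32.8 and 42.5 by day 2 and 29.2 and 30.2 at day 5. PKR KO libraries held 12.4 and 15.4 CPM on day 0, then 43.01 and 37.04 on day 1, 47.5 and 21.5 by day 2 and 15.8 and 18.8 at day 5. Both PKR KO libraries lay below both WT libraries on days 0, 1 and 5, but on day 2 the library labelled KO_D2 replicate 1 lay above both WT libraries, which goes against its label. In the fit across all genes no difference between the genotypes in Eif2ak2 passed (adjusted p = 0.802, 0.117, 0.994 and 0.653 on days 0, 1, 2 and 5). Results on PKR KO day 2 are therefore also given without that library, and list counts only where leaving it out changes them. Transcript positions are on mm10, from GENCODE M21. Each change is given on the log2 scale with its standard error (SE) and the adjusted p from the edgeR quasi-likelihood test, and a change was called at an adjusted p under 0.05. In whole-spleen RNA, more or fewer cells of a type and more or less RNA per cell cannot be told apart.

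Per length, Atf4 was the most abundant of the 10 RNAs in every group, at group means of 47.95 to 94.1 FPKM. On WT day 0 it stood at 48.4 FPKM, followed by Cebpb at 13.1, Ddit3 at 7.79 and Cebpg at 6.09. The remaining 6 genes were below 2 FPKM there, from Atf3 at 1.82 and Sesn2 at 1.69 down to Atf5 at 0.790, Asns at 0.748, Chac1 at 0.431 and Trib3 at 0.306. The genes that were scarce at the start moved most. The highest group mean in CPM was 18.98 times the lowest for Trib3, 16.03 times for Asns and 7.42 times for Chac1, but 1.59 times for Atf4 and 1.33 times for Cebpg. The plot of levels by day shows 3 time courses. Trib3 and Ddit3 had a peak on day 1. Atf4, Atf3, Atf5 and Chac1 had higher group means on days 1 and 2 than on days 0 and 5. Sesn2 and Asns had a rise over day 0 that was still called on day 5 in both genotypes. The second course was not flat. From day 1 to day 2 Atf5 and Chac1 rose in WT and Atf4 fell in both genotypes, without overlap of libraries.

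**Figure D1:**
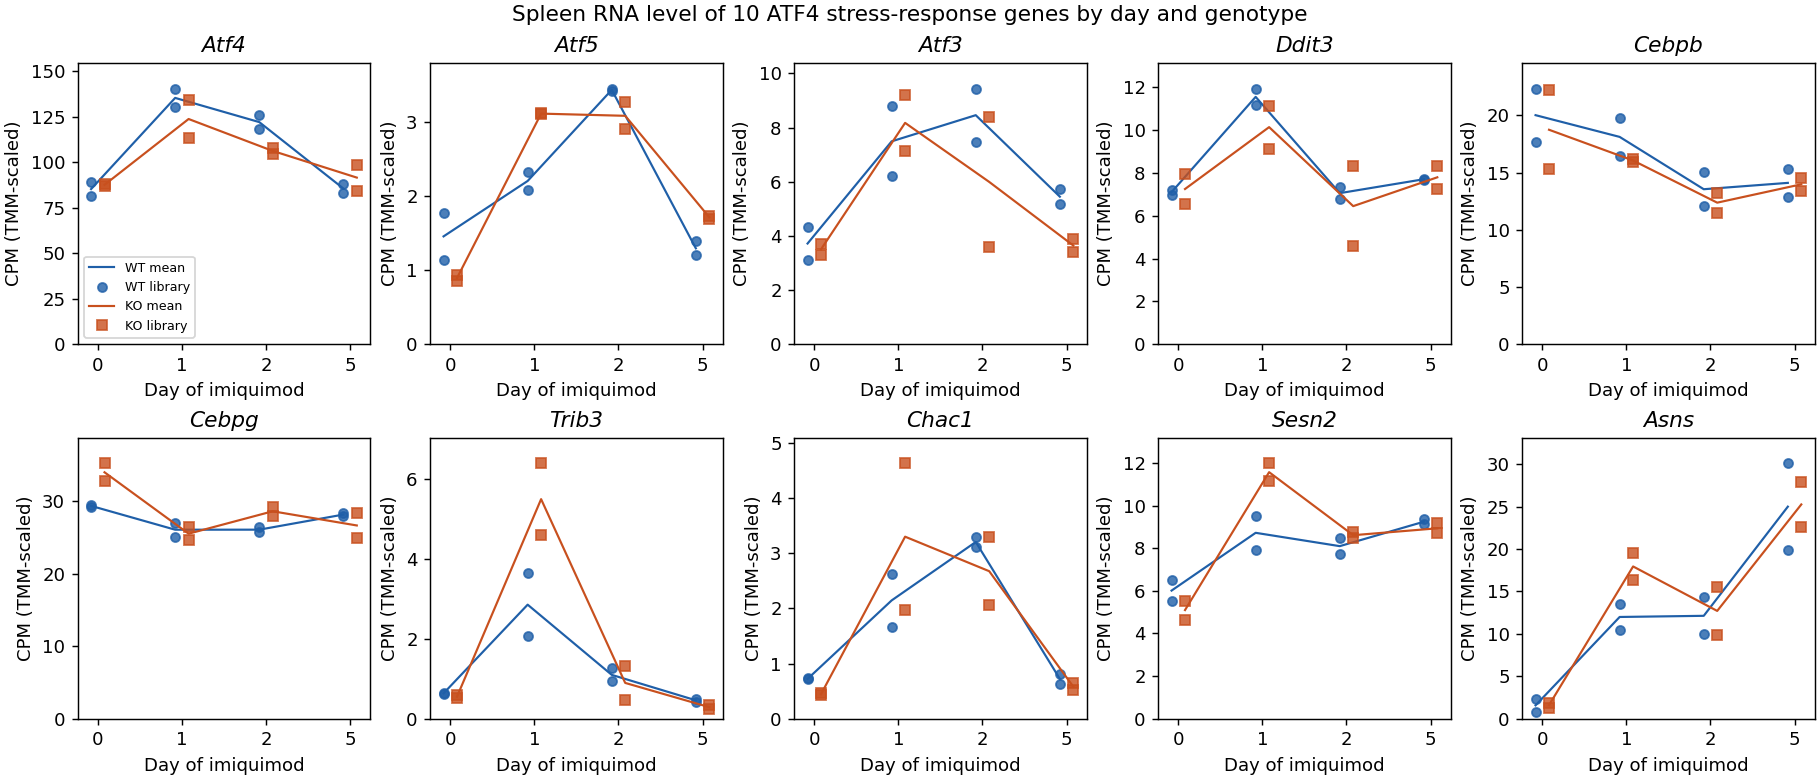
CPM of each of the 10 genes (linear vertical axes from 0, a scale of its own for each gene) by day of imiquimod, with blue circles for the 2 WT libraries and orange squares for the 2 PKR KO libraries of each day and lines through the group means; days are evenly spaced. Trib3 stands high on day 1 alone, Chac1 on days 1 and 2, and Asns is highest on day 5.

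Most of the 10 genes rose on the first day. In WT 8 of 10 were higher on day 1 than on day 0 and none was lower, against 21.9% of all 18745 genes tested higher and 22.7% lower. In PKR KO 7 were higher and 1 lower, against 20.7% and 20.9%. The median log2 change of the 10 genes was 0.68 in WT and 1.20 in PKR KO, where that of all genes was -0.07 and -0.04. On FPKM, which carries no composition factor, the median of all genes itself shifted by 0.23 in WT and 0.11 in PKR KO, and higher genes made up 79.9% and 65.7% of the calls instead of 49.1% and 49.8%; the number of the 10 genes called was then 8 and 9.

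By day 2, 6 of the 10 genes were higher than on day 0 and 1 was lower in WT, against 22.3% and 23.0% of all genes. In PKR KO 4 were higher and 1 lower, against 24.0% and 25.6%. With the library labelled KO_D2 replicate 1 left out, the number called in PKR KO was 7 instead of 5, with Atf3 and Trib3 added (values below). The PKR KO values of the other genes called on day 2 were then 1.86 for Atf5, 2.88 for Chac1, 0.78 for Sesn2, 3.29 for Asns and -0.71 for Cebpb, all 5 still called. In WT the number called fell from 7 to 4 without WT_D0 replicate 1 or without WT_D2 replicate 2. Median changes were 0.66 and 0.73, beside -0.06 and -0.06 over all genes.

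On day 5 little of this was left outside Sesn2, Asns and Atf5. In WT 2 genes were higher and 1 lower than on day 0, near the share of all genes (21.5% and 18.0%), and in PKR KO 3 were higher and 1 lower (all genes, 22.8% and 22.1%). The median changes were 0.00 and 0.08, beside -0.01 and -0.03 over all genes. The heat map of changes shows each value.

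**Figure D2:**
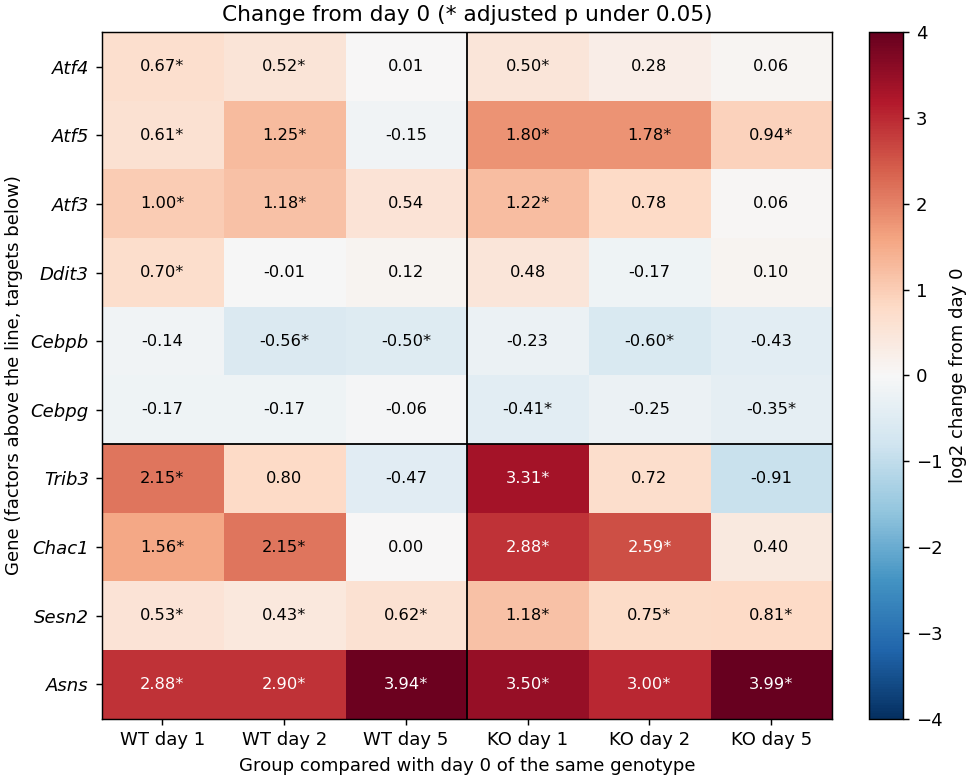
Log2 change from day 0 of each gene (rows, the 6 factors above the line and the 4 targets below it) on days 1, 2 and 5 in WT and PKR KO (columns), with the value in each cell and an asterisk where the adjusted p was under 0.05. Asns and Sesn2 carry asterisks in all 6 columns, Atf4 in 3, and Cebpb and Cebpg have negative values throughout.

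Atf4 (ENSMUST00000109605.4, chromosome 15, 80255184 to 80257541, + strand, 3 exons) is the central factor of the response. In WT it stood at 89.00 and 81.5 CPM on day 0, then 140.5 and 130.3 on day 1, 126 and 118 by day 2 and 83.05 and 88.1 at day 5. In PKR KO it stood at 87.2 and 88.1 CPM on day 0, then 134 and 113 on day 1, 105 and 108 by day 2 and 98.7 and 84.5 at day 5. Both genotypes had their highest libraries on day 1, and no library of day 1 or 2 overlapped those of day 0, while days 0 and 5 overlapped. Atf4 rose by a log2 value of 0.67 (SE 0.12, adjusted p = 0.000179) on day 1 in WT and 0.50 (SE 0.12, adjusted p = 0.00229) in PKR KO, that is 1.59-fold and 1.41-fold. On day 2 the change was 0.52 (SE 0.12, adjusted p = 0.00143) in WT and 0.28 (SE 0.12, adjusted p = 0.0576) in PKR KO, and the latter did not pass. Without the library labelled KO_D2 replicate 1 it was 0.30 (adjusted p = 0.105). The PKR KO value passed when the isoforms were summed, in DESeq2, with its size factors in edgeR, with the transcript chosen among all types and with an FPKM filter (0.32 to 0.36, adjusted p = 0.0155 to 0.0325). From day 2 to day 5, averaged over genotypes, Atf4 fell by 0.36 on the log2 scale (adjusted p = 0.00143).

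Atf5 (ENSMUST00000047356.10, chromosome 7, 44812256 to 44816658, - strand, 3 exons) encodes a factor whose translation is controlled in the same way as that of Atf4. WT libraries held 1.77 and 1.14 CPM on day 0, then 2.32 and 2.08 on day 1, 3.42 and 3.45 by day 2 and 1.39 and 1.20 at day 5. PKR KO libraries held 0.928 and 0.858 CPM on day 0, then 3.11 and 3.12 on day 1, 2.90 and 3.26 by day 2 and 1.74 and 1.69 at day 5. The 2 libraries of PKR KO day 0 were the lowest of all 16, and WT was highest on day 2, whereas the PKR KO libraries of days 1 and 2 overlapped. The change on day 1 was 0.61 (SE 0.23, adjusted p = 0.0338) in WT and 1.80 (SE 0.24, adjusted p = 1.13e-05) in PKR KO. On day 2 the values were 1.25 (SE 0.23, adjusted p = 0.000184) and 1.78 (SE 0.24, adjusted p = 8.2e-06). On day 5 Atf5 was still higher in PKR KO (0.94, SE 0.26, adjusted p = 0.00587), and in WT the value was -0.15 (SE 0.24, adjusted p = 0.65). The WT day 1 value was 0.97 (adjusted p = 0.00608) without WT_D0 replicate 1 and 0.31 (adjusted p = 0.374) without replicate 2. The call was also lost without either WT_D1 library (0.55, adjusted p = 0.137 and 0.70, adjusted p = 0.064) and in the fit of the compared groups alone (0.65, adjusted p = 0.0841).

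Atf3 (ENSMUST00000027941.13, chromosome 1, 191170296 to 191183340, - strand, 4 exons) encodes a factor induced by many stresses, and its promoter held the motif shown above. Its levels in WT were 3.12 and 4.32 CPM on day 0, then 6.19 and 8.79 on day 1, 7.48 and 9.44 by day 2 and 5.73 and 5.16 at day 5. Those in PKR KO were 3.29 and 3.72 CPM on day 0, then 9.21 and 7.13 on day 1, 3.58 and 8.40 by day 2 and 3.42 and 3.87 at day 5. On PKR KO day 2 the pair was split, with the library labelled KO_D2 replicate 1 inside the range of day 0 and replicate 2 among the high libraries of day 1. Atf3 rose on day 1 by 1.00 (SE 0.31, adjusted p = 0.0172) in WT and 1.22 (SE 0.32, adjusted p = 0.00705) in PKR KO, and on day 2 by 1.18 (SE 0.31, adjusted p = 0.00703) in WT. The PKR KO value of day 2 was 0.78 (SE 0.32, adjusted p = 0.0586), and 1.26 (adjusted p = 0.000451) without the library labelled KO_D2 replicate 1, but 0.09 (adjusted p = 0.812) without KO_D2 replicate 2. It also passed with no filter, with the FPKM filter, in DESeq2, with its size factors in edgeR, with the transcript chosen among all types and with a replicate block (0.74 to 0.87, adjusted p = 0.000406 to 0.0461). The WT calls were lost without WT_D0 replicate 1 (0.83, adjusted p = 0.124 on day 1 and 1.03, adjusted p = 0.0646 on day 2), without WT_D1 replicate 2 (0.74, adjusted p = 0.128) and without WT_D2 replicate 2 (1.04, adjusted p = 0.0585). The PKR KO call of day 1 was lost without KO_D0 replicate 1 (1.16, adjusted p = 0.0647) or KO_D1 replicate 1 (1.05, adjusted p = 0.0593).

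Ddit3 (ENSMUST00000026475.14, chromosome 10, 127290774 to 127296288, + strand, 4 exons) encodes CHOP, a factor tied to cell death under prolonged stress. WT libraries stood at 6.98 and 7.22 CPM on day 0, then 11.9 and 11.2 on day 1, 7.33 and 6.78 by day 2 and 7.73 and 7.68 at day 5. PKR KO libraries stood at 7.95 and 6.55 CPM on day 0, then 11.1 and 9.14 on day 1, 4.60 and 8.30 by day 2 and 8.34 and 7.25 at day 5. All 4 libraries of day 1 were above all 12 others. The rise on day 1 was 0.70 (SE 0.20, adjusted p = 0.00758) in WT, and the value in PKR KO was 0.48 (SE 0.20, adjusted p = 0.0627), which passed in limma on both FPKM scales, with no filter and in the fit of the compared groups alone. From day 1 to day 2, averaged over genotypes, Ddit3 fell by 0.68 on the log2 scale (adjusted p = 0.000863), and the value was -0.51 (adjusted p = 0.0026) with the library labelled KO_D2 replicate 1 left out. That library was the lowest of the 16. On day 2 the PKR KO change from day 0 was -0.17 (SE 0.20, adjusted p = 0.525), 0.19 (adjusted p = 0.446) without that library and -0.60 (adjusted p = 0.0208) without KO_D2 replicate 2, when it was called lower. The rise of Atf4 was still present in WT on day 2, when the Ddit3 value was -0.01.

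In the edgeR fit, the 2 C/EBP genes were the only ones of the 10 with a negative value in each of the 6 comparisons with day 0. The sign on day 1 depended on the processing. Over the alternatives the day 1 value reached 0.155 in WT and 0.097 in PKR KO for Cebpb, and 0.122 in WT for Cebpg. In FPKM, the WT mean went from 13.07 on day 0 to 14.46 on day 1 for Cebpb and from 6.088 to 6.635 for Cebpg. Cebpb (ENSMUST00000070642.3, chromosome 2, 167688915 to 167690418, + strand, 1 exon) and Cebpg (ENSMUST00000130491.2, chromosome 7, 35046422 to 35056573, - strand, 2 exons) encode partners of ATF4 on the response element, and C/EBPbeta is also a factor of the myeloid lineage. Cebpb stood at 22.3 and 17.7 CPM on day 0, then 19.8 and 16.4 on day 1, 15.01 and 12.1 by day 2 and 15.3 and 12.9 at day 5 in WT. In PKR KO it stood at 22.2 and 15.3 CPM on day 0, then 15.96 and 16.1 on day 1, 13.2 and 11.5 by day 2 and 14.5 and 13.4 at day 5. Each genotype had its highest single library on day 0, while the second PKR KO library of day 0 lay within the range of days 1 and 5. Cebpb fell on day 2, by 0.56 (SE 0.17, adjusted p = 0.0132) on the log2 scale in WT and 0.60 (SE 0.18, adjusted p = 0.00849) in PKR KO, and in WT also on day 5, by 0.50 (SE 0.17, adjusted p = 0.0282). The PKR KO day 5 value was -0.43 (SE 0.18, adjusted p = 0.0571). These calls lean on single libraries. The WT values were -0.34 (adjusted p = 0.197) on day 2 and -0.28 (adjusted p = 0.316) on day 5 without WT_D0 replicate 1. They were -0.38 (adjusted p = 0.201) without WT_D2 replicate 2 and -0.38 (adjusted p = 0.225) without WT_D5 replicate 2. The PKR KO day 2 value was -0.23 (adjusted p = 0.353) without KO_D0 replicate 1 and -0.44 (adjusted p = 0.11) without KO_D2 replicate 2. The WT day 5 call was also lost in limma on both FPKM scales and with isoforms summed (adjusted p = 0.0712 to 0.0894).

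Markers of the cells that are rich in C/EBP factors moved over the same days. The summed CPM of 10 neutrophil markers was 617 to 1195 on day 0, 499 to 1176 on day 1, 156 to 461 on day 2 and 663 to 973 on day 5. For 10 monocyte and macrophage markers it was 677 to 803 on day 0, 481 to 806 on day 1, 333 to 397 on day 2 and 778 to 1020.0 on day 5. Of the neutrophil markers 6 were lower on day 2 in WT and 3 in PKR KO (2 without the library labelled KO_D2 replicate 1), and of the monocyte and macrophage markers 6 and 7. No marker of either list was at 0 in both libraries of a group. Their part in the Cebpb values was not tested.

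Cebpg was the steadiest of the 10 genes. Its WT libraries held 29.2 and 29.5 CPM on day 0, then 25.1 and 27.04 on day 1, 26.4 and 25.7 by day 2 and 28.3 and 27.97 at day 5. Its PKR KO libraries held 32.7 and 35.2 CPM on day 0, then 26.4 and 24.6 on day 1, 27.97 and 29.2 by day 2 and 28.4 and 24.9 at day 5. The PKR KO day 0 pair lay above all 14 other libraries, and the other 7 groups overlapped with their neighbours in rank. Cebpg fell in PKR KO by 0.41 (SE 0.11, adjusted p = 0.00536) on the log2 scale on day 1 and 0.35 (SE 0.11, adjusted p = 0.0144) on day 5, and the WT values were -0.17, -0.17 and -0.06, none past the threshold. Without KO_D0 replicate 2 the PKR KO values were -0.33 (adjusted p = 0.0606) on day 1 and -0.24 (adjusted p = 0.156) on day 5. Without KO_D1 replicate 2 the first was -0.36 (adjusted p = 0.0705), and without KO_D5 replicate 2 the second was -0.20 (adjusted p = 0.264). The day 5 call was also lost with no filter, with summed isoforms and in the fit of the compared groups alone (adjusted p = 0.073 to 0.0836).

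Among the 10 genes, Trib3 differed most between groups. Trib3 (ENSMUST00000040312.6, chromosome 2, 152337422 to 152344032, - strand, 4 exons) encodes a pseudokinase that ATF4 induces and that in turn holds ATF4 back. Its WT libraries stood at 0.619 and 0.651 CPM on day 0, then 3.65 and 2.06 on day 1, 0.935 and 1.26 by day 2 and 0.505 and 0.416 at day 5. Its PKR KO libraries stood at 0.506 and 0.598 CPM on day 0, then 6.39 and 4.59 on day 1, 0.479 and 1.31 by day 2 and 0.337 and 0.242 at day 5. The 4 libraries of day 1 were above the 12 others, and both PKR KO libraries of that day were above both WT ones. Trib3 rose on day 1 by 2.15 (SE 0.36, adjusted p = 0.000118) in WT, 4.45-fold, and 3.31 (SE 0.38, adjusted p = 2.02e-06) in PKR KO, 9.94-fold. On day 2 neither genotype passed (0.80, SE 0.39, adjusted p = 0.106 in WT and 0.72, SE 0.43, adjusted p = 0.174 in PKR KO), although the PKR KO value was 1.25 (adjusted p = 0.0194) without the library labelled KO_D2 replicate 1 and -0.14 (adjusted p = 0.851) without KO_D2 replicate 2. Averaged over genotypes, Trib3 fell by 1.98 on the log2 scale from day 1 to day 2 (adjusted p = 6.57e-06) and by a further 1.44 to day 5 (adjusted p = 0.00123). The last step was lost in limma on log2(FPKM + 1) (-0.31, adjusted p = 0.0566). Counts ran from 8 to 269 fragments per library, so the low libraries carry large counting error. On log2(FPKM + 1), which compresses low values, the day 1 changes of Trib3 were 1.02 and 1.59.

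Chac1 (ENSMUST00000028780.3, chromosome 2, 119351229 to 119354381, + strand, 3 exons) encodes an enzyme that degrades glutathione. WT libraries held 0.729 and 0.714 CPM on day 0, then 2.63 and 1.66 on day 1, 3.30 and 3.11 by day 2 and 0.808 and 0.636 at day 5. PKR KO libraries held 0.422 and 0.468 CPM on day 0, then 4.63 and 1.97 on day 1, 2.06 and 3.29 by day 2 and 0.647 and 0.514 at day 5. All 8 libraries of days 1 and 2 were above all 8 of days 0 and 5. Chac1 rose by 1.56 (SE 0.36, adjusted p = 0.00202) on day 1 and 2.15 (SE 0.36, adjusted p = 0.000112) on day 2 in WT. In PKR KO it rose by 2.88 (SE 0.40, adjusted p = 1.75e-05) and 2.59 (SE 0.41, adjusted p = 3.98e-05). From day 2 to day 5 it fell by 2.17 on the log2 scale averaged over genotypes (adjusted p = 3.31e-06), and the day 5 values against day 0 were 0.00 in WT and 0.40 in PKR KO, neither past the threshold. Among days 1 and 2, each group overlapped the next in rank. The 2 PKR KO libraries of day 1 lay far apart, and the day 1 rise was 2.16 (adjusted p = 0.000387) without the higher, KO_D1 replicate 1. On log2(FPKM + 1) the rises were smaller, at 0.83 on day 1 in WT and 1.24 in PKR KO.

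Plasma cell markers were highest on day 2. Chac1 and Atf4 were already high on day 1, and the Atf4 group means were lower on day 2 than on day 1 in both genotypes. The summed CPM of 8 plasma cell markers was 275 to 328 on day 0, 432 to 567 on day 1, 1505 to 2714 on day 2 and 386 to 732 on day 5. All 8 were higher on day 2 than on day 0 in both genotypes, and 5 were higher on day 1. No marker of this list was at 0 in both libraries of a group. The part of plasma cells in the levels of the 10 genes was not tested.

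Sesn2 (ENSMUST00000030724.8, chromosome 4, 132492032 to 132510501, - strand, 10 exons) encodes Sestrin2, a leucine sensor that restrains mTORC1. Levels in WT were 5.50 and 6.52 CPM on day 0, then 9.53 and 7.92 on day 1, 7.71 and 8.48 by day 2 and 9.12 and 9.37 at day 5. Levels in PKR KO were 5.54 and 4.65 CPM on day 0, then 11.99 and 11.2 on day 1, 8.46 and 8.77 by day 2 and 9.17 and 8.70 at day 5. No library of days 1, 2 or 5 overlapped the 4 of day 0, and both PKR KO libraries of day 1 were above the other 14. Sesn2 rose by 0.53 (SE 0.15, adjusted p = 0.00736), 0.43 (SE 0.15, adjusted p = 0.0276) and 0.62 (SE 0.15, adjusted p = 0.00328) on days 1, 2 and 5 in WT. In PKR KO it rose by 1.18 (SE 0.15, adjusted p = 7.56e-06), 0.75 (SE 0.15, adjusted p = 0.000529) and 0.81 (SE 0.15, adjusted p = 0.000345). The WT day 1 call was lost when WT_D0 replicate 1 was left out (0.45, adjusted p = 0.0549) and when WT_D1 replicate 1 was (0.41, adjusted p = 0.0893). The WT day 2 call was lost without WT_D0 replicate 1 (0.37, adjusted p = 0.116), without WT_D2 replicate 2 (0.40, adjusted p = 0.129) and with no filter (0.43, adjusted p = 0.0523).

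Asns (ENSMUST00000115542.7, chromosome 6, 7675169 to 7692871, - strand, 12 exons) encodes asparagine synthetase, the classical target of ATF4 in amino acid shortage. Libraries of WT stood at 0.818 and 2.33 CPM on day 0, then 13.5 and 10.5 on day 1, 9.93 and 14.3 by day 2 and 19.9 and 30.1 at day 5. Those of PKR KO stood at 1.31 and 1.90 CPM on day 0, then 16.4 and 19.5 on day 1, 9.90 and 15.5 by day 2 and 27.9 and 22.6 at day 5. All 12 libraries of treated mice were above the 4 of day 0, and the 4 of day 5 were above the 12 others. As a ratio, the WT day 0 pair differed most. Asns rose by 2.88 (SE 0.43, adjusted p = 0.000469) on day 1 in WT, 7.33-fold, and 3.50 (SE 0.45, adjusted p = 0.000169) in PKR KO, 11.3-fold. On day 5 the change was 3.94 (SE 0.45, adjusted p = 7.39e-05) in WT, 15.3-fold, and 3.99 (SE 0.46, adjusted p = 6.03e-05) in PKR KO, 15.9-fold. The size of the WT rise hung on that pair, since without WT_D0 replicate 2 it was 3.87 on day 1, 3.92 on day 2 and 4.95 on day 5. On day 2 the changes with all libraries were 2.90 (SE 0.44, adjusted p = 0.000401) in WT and 3.00 (SE 0.45, adjusted p = 0.000339) in PKR KO. From day 2 to day 5 it rose by 1.01 averaged over genotypes (adjusted p = 0.0112). In this comparison Asns and Trib3 were called in opposite directions.

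The summed CPM of 8 proliferation markers was 228 to 354 on day 0, 1005 to 1095 on day 1, 1652 to 2333 on day 2 and 2179 to 3263 on day 5. All 8 were higher on each treated day in both genotypes. Their sum rose from day 1 to day 2, while the Asns value for that step was -0.24 (SE 0.27, adjusted p = 0.515), averaged over genotypes. For 10 erythroid precursor markers the sum was 202 to 622 on day 0 and 103.5 to 222.5 on day 1. That sum was 52.98 to 129.3 on day 2 and 3602 to 8833 on day 5. All 10 of these markers were higher on day 5 in both genotypes. No marker of these 2 lists was at 0 in both libraries of a group. The part of dividing cells or of red cell precursors in the Asns level was not tested.

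The treated days were also compared directly with each other. From day 1 to day 2, averaged over genotypes, 4 of the 10 were lower (Ddit3, Trib3, Sesn2 and Cebpb) and none higher, against 22.1% and 20.8% of all genes. The median of the 10 was -0.21, beside -0.03 over all genes. The Sesn2 call was marginal (-0.27, SE 0.10, adjusted p = 0.0499) and was lost in 15 of 18 alternatives. Cebpb fell by 0.40 (SE 0.12, adjusted p = 0.0145) on the log2 scale and lost its call without WT_D1 replicate 1, WT_D2 replicate 2, KO_D1 replicate 1 or KO_D2 replicate 2 (adjusted p = 0.0571 to 0.119). The number called was 2 without WT_D1 replicate 1, WT_D2 replicate 2 or KO_D1 replicate 1. On FPKM the median of all genes moved by -0.22, with 19.2% of the calls higher instead of 48.5%. Without the library labelled KO_D2 replicate 1, 3 of the 10 were called in this step, Trib3 at -1.71 (adjusted p = 1.39e-05) and Cebpb at -0.46 (adjusted p = 0.0138) beside Ddit3.

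From day 2 to day 5, 5 of the 10 genes were lower (Atf4, Atf5, Atf3, Trib3 and Chac1) and 1, Asns, was higher, against 21.7% and 23.5% of all genes. The median change of the 10 was -0.18, beside -0.01 over all genes. The largest falls were those of Chac1 and Trib3, given above. Atf5 fell by 1.13 (SE 0.17, adjusted p = 1.54e-05) on the log2 scale. Atf3 fell by 0.68 (SE 0.23, adjusted p = 0.0232), and this was -0.31 (adjusted p = 0.16) without KO_D2 replicate 2. The call was also lost without WT_D2 replicate 2, either WT_D5 library or either KO_D5 library (adjusted p = 0.051 to 0.0862). Without the library labelled KO_D2 replicate 1 it was -0.92 (adjusted p = 0.000116), and 6 of the 10 were called. The other values were then -0.37 for Atf4, -1.17 for Atf5, -1.71 for Trib3, -2.31 for Chac1 and 0.87 for Asns.

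The remaining markers check the tissue. B cell and T cell markers, which define spleen, were present in every library. The sum of 8 B cell markers was 2042 to 2235 CPM on day 0 and 1129 to 1428 on day 5. That of 10 T cell markers was 482 to 585 on day 0, 202 to 298 on day 1, 72.4 to 130.5 on day 2 and 171 to 219.5 on day 5, and all 10 were lower on days 2 and 5 in both genotypes. All 7 dendritic cell markers were lower on days 1 and 2 in both genotypes, with a sum of 79.8 to 85.5 CPM on day 0, 27.8 to 41.4 on day 1 and 27.4 to 29.7 on day 2, and 79.6 to 92.1 on day 5, when 1 was higher and 1 lower in each genotype. Of 6 natural killer cell markers, 4 to 6 were lower on each treated day in each genotype, with a sum of 81.7 to 123 CPM on day 0 and 51.1 to 59.9 on day 2. Of 6 megakaryocyte markers 2 were higher on day 5 in each genotype, with sums of 3.49 to 21.8 CPM over all libraries, and of 6 tested endothelial and stromal markers 4 were higher on day 5, with sums of 71.4 to 121 CPM. Cd209a on PKR KO day 2 and Ccl21a on PKR KO day 1 were at 0 in both libraries. The part of these cells in the levels of the 10 genes was not tested.

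Other genes known as ATF4 targets, 54 in 4 lists that share no gene with the 10, moved in the same first days, as the plot of the target lists shows. Of the 51 that passed the filter, 37 were higher and 3 lower on day 1 in WT, and 35 and 5 in PKR KO. Of all genes, 20.7% to 24.0% were higher and 18.0% to 25.6% lower over the 6 comparisons with day 0, the shares against which the counts of each list can be set. On day 2 the numbers were 37 and 3 in WT and 36 and 5 in PKR KO, and on day 5 29 and 3 in WT and 26 and 4 in PKR KO. The median log2 changes were 1.26, 0.89 and 0.60 in WT and 1.37, 1.00 and 0.41 in PKR KO, all above the medians of all genes given above. With the library labelled KO_D2 replicate 1 left out, the day 2 numbers in PKR KO were 33 and 4 of 52.

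The genes of amino acid synthesis, 13 tested of 14 listed, rose together in the first days. In WT, 13, 13 and 8 of them were higher on days 1, 2 and 5 and none was lower. In PKR KO, 13, 13 and 7 of them were higher on days 1, 2 and 5 and 0, 0 and 1 were lower. Bcat1, which transaminates branched-chain amino acids, rose by 5.01 on day 1 in WT and 5.60 in PKR KO, and Pycr1, an enzyme of proline synthesis, by 3.20 and 4.07. Psat1 of serine synthesis rose by 2.68 on day 1 in WT, and Cth, which makes cysteine, by 3.49 in PKR KO. On day 5 the mitochondrial enzyme Pck2 was among the largest rises, at 1.68 in WT and 1.69 in PKR KO. From day 2 to day 5, 12 of the 13 fell and none rose (12 and 1 without the library labelled KO_D2 replicate 1), while Asns rose.

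Amino acid transporters made up a list of 9. In WT, 6, 6 and 4 of them were higher on days 1, 2 and 5 and 0, 0 and 1 were lower. In PKR KO, 6, 6 and 5 of them were higher on days 1, 2 and 5 and 1, 0 and 1 were lower. The cationic transporter Slc7a3 rose by 4.85 and 5.91 on day 1 in WT and PKR KO, the neutral transporter Slc1a4 by 2.66 and 4.34, and Slc7a5, which carries leucine, by 2.27 and 2.87. Slc7a5 was still higher on day 5 (1.79 and 2.35). Slc38a2 fell on day 5, with -0.41 in WT and -0.59 in PKR KO.

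The list of tRNA charging held 13 genes, 12 aminoacyl-tRNA synthetases and Xpot, which exports tRNA from the nucleus. None of the 13 fell in any comparison with day 0. In WT, 13, 12 and 12 of them were higher on days 1, 2 and 5 and none was lower. In PKR KO, 13, 12 and 8 of them were higher on days 1, 2 and 5 and none was lower. Their medians on days 1, 2 and 5 were 1.33, 0.89 and 0.67 in WT and 1.50, 1.09 and 0.35 in PKR KO. Aars, the alanyl-tRNA synthetase, rose by 1.64 and 2.01 on day 1 and by 1.31 and 1.51 on day 5, and Yars, the tyrosyl-tRNA synthetase, by 1.82 and 1.93 on day 2 (the latter 1.70 without the library labelled KO_D2 replicate 1).

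The stress effectors, 16 tested of 18 listed, moved in both directions. In WT, 5, 6 and 5 of them were higher on days 1, 2 and 5 and 3, 3 and 2 were lower. In PKR KO, 3, 5 and 6 of them were higher on days 1, 2 and 5 and 4, 5 and 2 were lower. Of all genes, 20.7% to 24.0% were higher and 18.0% to 25.6% lower. Their median changes lay between -0.04 and 0.20. Without the library labelled KO_D2 replicate 1, 2 were higher and 4 lower of 17 on day 2 in PKR KO. The growth factor gene Vegfa rose by 1.86 and 2.62 on day 1 and 3.09 and 3.52 on day 2 (the latter 3.73 without the same library), and the stress gene Nupr1 by 1.75 and 1.31 on day 1. Ddit4, an inhibitor of mTORC1, fell, with -2.15 and -2.36 on day 1 and -1.88 and -2.11 on day 5, and the BH3-only gene Bbc3 fell, with -1.64 and -1.21 on day 1. Gadd45a rose by 1.38 and 1.84 on day 5. Each pair of values is WT first and PKR KO second.

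**Figure D3:**
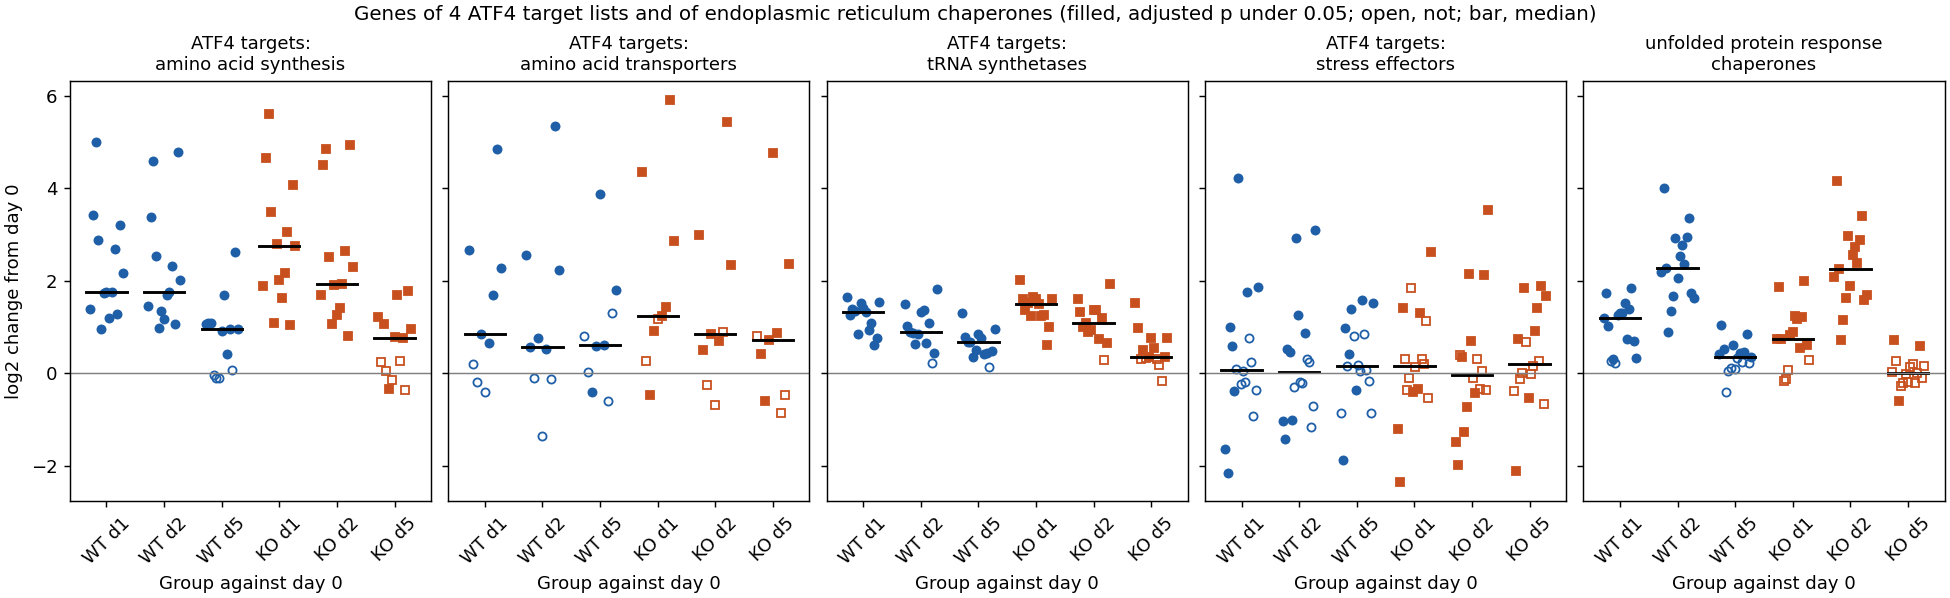
Log2 change from day 0 (vertical axis) of each tested gene in 4 lists of ATF4 targets and a list of endoplasmic reticulum chaperones, for days 1, 2 and 5 (d1, d2, d5) in WT (blue circles) and PKR KO (orange squares); filled points had an adjusted p under 0.05, open points did not, and black bars are medians. The genes of the tRNA synthetase list, Xpot included, have medians of 1.33 in WT and 1.50 in PKR KO on day 1, and the chaperones are highest on day 2, with medians of 2.28 and 2.26.

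Chaperones of the unfolded protein response, which the factors ATF6 and XBP1 control, had another time course. The list holds 15 genes. In WT, 13, 15 and 8 of them were higher on days 1, 2 and 5 and none was lower. In PKR KO, 11, 15 and 2 of them were higher on days 1, 2 and 5 and 0, 0 and 1 were lower. With or without the library labelled KO_D2 replicate 1, all 15 rose from day 1 to day 2 and fell from day 2 to day 5 averaged over genotypes. Creld2 rose by 1.73 and 1.86 on day 1 and by 4.0 and 4.16 on day 2 (the latter 3.99 without that library). Trib3 and Ddit3 fell over the step from day 1 to day 2 in which these 15 genes rose. The plasma cell markers, given above, rose over the same step.

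Among 36 other bZIP factors, Xbp1 rose by 1.50 and 1.20 on day 1 and by 3.44 and 3.49 on day 2, and Atf6 by 2.17 and 2.06 on day 2. Batf, a factor of activated lymphocytes, rose by 1.74 and 2.20 on day 1. Cebpa, the myeloid relative of Cebpb, changed by -1.58 and -1.55 on day 1 and by -1.67 and -2.56 on day 2, all past the threshold. In WT, 4, 7 and 8 of them were higher on days 1, 2 and 5 and 9, 11 and 7 were lower. In PKR KO, 8, 8 and 8 of them were higher on days 1, 2 and 5 and 7, 12 and 5 were lower. The shares of all genes were 20.7% to 24.0% higher and 18.0% to 25.6% lower. With the library labelled KO_D2 replicate 1 left out, 10 were higher and 9 lower of 37 on day 2 in PKR KO, and the value of Xbp1 was 3.04, that of Atf6 2.06 and that of Cebpa -2.54.

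A list of 13 genes held eIF2alpha kinases, phosphatase subunits and eIF2B, which act upstream of Atf4. It also held Eif2s1, the gene of eIF2alpha itself, and Eif2a, the gene of a separate initiation factor. Ppp1r15a was counted both here and among the stress effectors. In WT, 8, 5 and 7 of the 13 were higher on days 1, 2 and 5 and 1, 0 and 1 were lower. In PKR KO, 8, 7 and 7 of them were higher on days 1, 2 and 5 and 1, 0 and 1 were lower. When the library labelled KO_D2 replicate 1 was left out, 6 were higher on day 2 in PKR KO. Eif2ak2, the gene of PKR, rose by 1.93 on day 1 in WT and 1.52 in PKR KO, while Eif2ak3, the gene of PERK, fell, with -0.79 and -0.86. Eif2ak1, the gene of the heme-regulated kinase, which is abundant in red cell precursors, rose by 1.32 and 1.86 on day 5, when the erythroid markers given above were high. Eif2b3, a subunit of the exchange factor eIF2B, rose by 1.19 and 1.15 on day 1.

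Whether the loss of PKR changed the response was addressed by the difference between the genotypes in the change from day 0. None of the 10 genes passed this test in edgeR on any day, where 0.171% of all genes passed on day 1, 0% on day 2 and 0% on day 5. At an unadjusted p under 0.05 there were 4 of the 10 on day 1, 0 on day 2 and 1 on day 5. The share of all genes at that unadjusted threshold is not given here, so these numbers have no background beside them. DESeq2 and limma on both FPKM scales also called none of the 10. The 4 genes of day 1 all had the larger estimate in PKR KO, as the plot of the genotype difference shows. The difference in log2 change was 1.18 (SE 0.33, adjusted p = 0.152) for Atf5, 1.32 (SE 0.55, adjusted p = 0.31) for Chac1, 1.16 (SE 0.53, adjusted p = 0.359) for Trib3 and 0.65 (SE 0.21, adjusted p = 0.212) for Sesn2. For these 4 the adjusted p ran from 0.104 to 0.739 over all alternatives, and every value stayed positive. Atf4 itself had a value of -0.17 (SE 0.17, adjusted p = 0.696). The gene of day 5 was Atf5, at 1.09 (SE 0.35, adjusted p = 0.557).

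**Figure D4:**
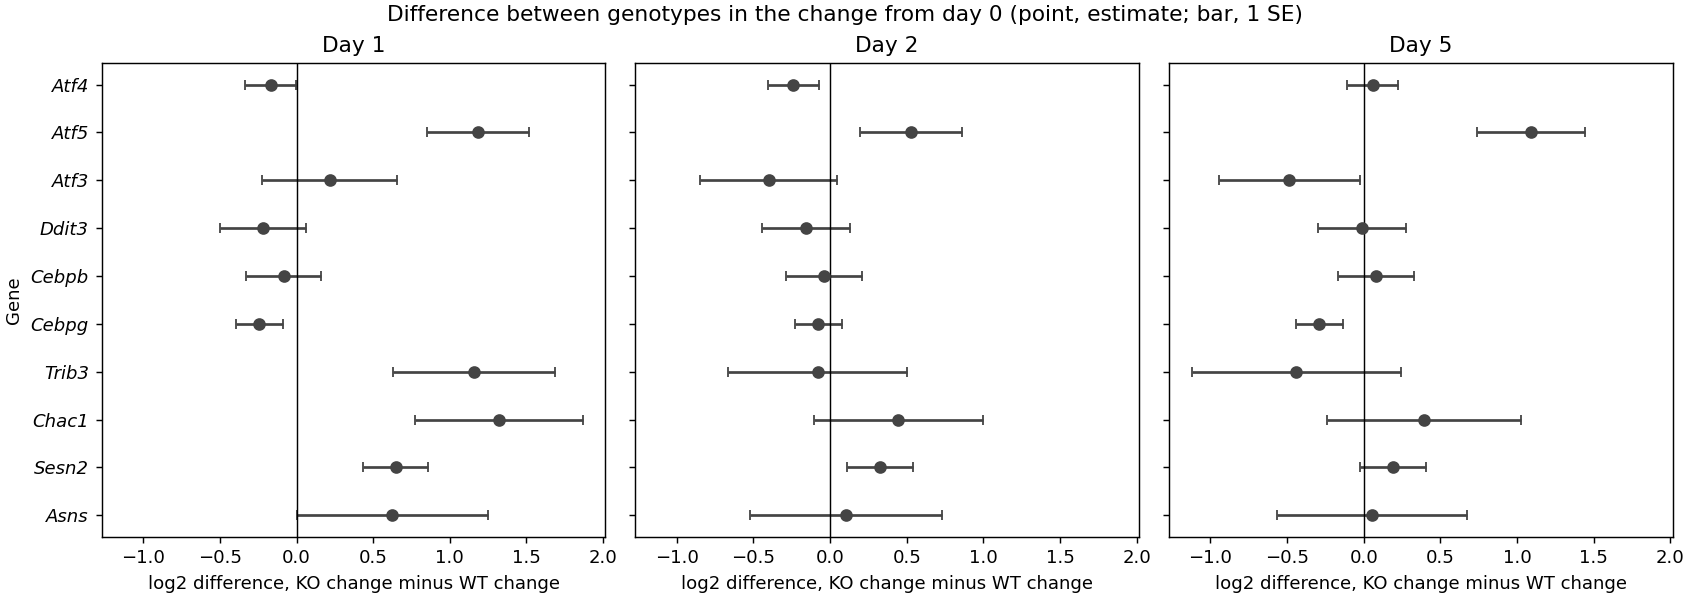
Difference between PKR KO and WT in the log2 change from day 0 (horizontal axis, the same scale in the 3 panels; positive where PKR KO rose more) for each gene on days 1, 2 and 5; points are edgeR estimates and bars 1 SE. On day 1 Atf5, Trib3, Chac1 and Sesn2 lie to the right, at 1.18, 1.16, 1.32 and 0.65, and no gene passed the test after adjustment.

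In Atf5, Chac1 and Sesn2 the day 1 difference combines a PKR KO estimate below WT on day 0 with one above WT on day 1, none of them past the threshold. On day 0 the PKR KO value against WT was -0.68 (SE 0.25, adjusted p = 0.802) for Atf5, -0.70 (SE 0.44, adjusted p = 0.816) for Chac1 and -0.24 (SE 0.15, adjusted p = 0.821) for Sesn2. On day 1 it was 0.50 (SE 0.22, adjusted p = 0.472), 0.62 (SE 0.33, adjusted p = 0.587) and 0.41 (SE 0.15, adjusted p = 0.334). For Trib3 the difference lay mostly on day 1 (0.95, SE 0.31, adjusted p = 0.273), where the 2 PKR KO libraries were above both WT libraries. With no filter on low counts that Trib3 value passed (0.90, adjusted p = 0.0481), the only such call among the 10 in any alternative of a genotype comparison. On FPKM the median of all genes was itself -0.19 between the genotypes on day 1, and the Trib3 value on log2(FPKM + 1) was 0.52.

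Directly compared on each day, no gene of the 10 was called between PKR KO and WT in edgeR. The share of all genes called was 0.0213% on day 0, 0.187% on day 1, 0% on day 2 and 0.00533% on day 5, and 0.0267% for the mean of the 4 days. At an unadjusted p under 0.05 there was 1 of the 10 on day 0 (Atf5), 3 on day 1 (Atf5, Trib3 and Sesn2) and 0 on days 2 and 5 and for the mean. Here too the share of all genes at the unadjusted threshold is not given. DESeq2 and limma on both FPKM scales called none. The mean differences over the 4 days ran from -0.26 for Atf3 to 0.16 for Asns. Without the library labelled KO_D2 replicate 1 those 2 values were -0.15 and 0.22, and none of the 10 was called.

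On day 2 the 2 PKR KO libraries differed from each other in the stress factors. The library labelled KO_D2 replicate 1 was lower than replicate 2 in Atf3, Ddit3, Trib3, Chac1 and Asns, and higher in Eif2ak2. Without it the PKR KO value against WT turned from -0.12 to 0.23 for Ddit3, from -0.29 to 0.24 for Trib3 and from -0.26 to 0.04 for Chac1. For Atf3 it went from -0.50 to -0.02. Without KO_D2 replicate 2 the values were -0.62 for Ddit3, -1.21 for Trib3, -0.64 for Chac1 and -1.25 for Atf3. None of these values passed the test. Of this pair, the first had summed plasma cell markers of 2714 CPM and the second 1505, and the sums were 72.4 and 130.5 for T cell markers and 174 and 461 for neutrophil markers. The part of these cells in the split was not tested.

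The time courses of the 10 genes were set side by side by the Pearson r of log2(CPM + 0.1) over the 16 libraries. These r describe libraries that share their days of sampling and are not independent of them. Over the 45 pairs r ran from -0.79 for Sesn2 and Cebpg to 0.91 for Atf5 and Chac1. Atf4 was closest to Chac1 (0.87) and Trib3 (0.80) and far from Asns (0.35), and Asns was closest to Sesn2 (0.88). Ddit3 had its highest r with Trib3 (0.69). Over the 15 libraries without the library labelled KO_D2 replicate 1, these r were -0.80 for Sesn2 and Cebpg, 0.91 for Atf5 and Chac1, 0.87, 0.82 and 0.35 for Atf4, 0.88 for Asns and Sesn2 and 0.75 for Ddit3 and Trib3.

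Across all tested genes with a name, the 3 most like each of the 10 were as follows. For Atf4 they were Exosc10 (0.94), Grpel1 (0.94) and Dera (0.93). For Trib3 they were Smyd5 (0.96), Ccl12 (0.96) and Bcl2a1b (0.95), and for Chac1 Grhl1 (0.97), Gadd45b (0.96) and Mfsd2a (0.96). Sesn2 was closest to Slc7a1 (0.97), Nup188 (0.95) and Arl2 (0.94), of which Slc7a1 is a transporter of cationic amino acids. Asns was closest to Orc1 (0.98), Rnaseh2b (0.97) and Syce2 (0.97), of which Orc1 is a subunit of the complex that marks origins of replication. Atf5 was closest to Prag1 (0.95), Lmnb2 (0.95) and Nck2 (0.95), and Atf3 to Slc1a4 (0.86), Batf (0.86) and Ncs1 (0.84), of which Slc1a4 and Batf stand in the lists above. The values for Ddit3 were Txnrd3 (0.89), Pla2g4f (0.89) and Max (0.88), for Cebpb Ptpn18 (0.93), Dtx1 (0.92) and Ubxn6 (0.92) and for Cebpg Cdc37l1 (0.90), Mars2 (0.89) and Crk (0.88). Without the same library these 30 r moved by at most 0.06. Ccl12 and Ncs1 averaged only 0.184 and 0.344 CPM, near the 0.1 added before the log, and Pla2g4f 0.729. Counting error therefore weighs on the r of these genes.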

How the data were processed

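Total RNA of spleen cells, depleted of ribosomal RNA and made into stranded libraries per the labels' protocols, was sequenced in 16 libraries of 2 pooled mice. The authors' deposited tables list 142604 transcripts with the raw fragment count, the signal FPM (fragments scaled to library size) and the FPKM, per the file headers. The submitters' processing notes name bcl2fastq 2.17.1.14, Trimmomatic, HISAT2, TopHat and the mm10 build, and give no role for each. The sources used here name neither the counter nor the annotation. In the deposited counts a fragment is counted in every isoform it overlaps, so 1 transcript was kept per symbol, the protein-coding one with the highest mean count (99.1% of transcripts were found in GENCODE M21, the source of coordinates and exons). Library totals were computed as count over FPM and ran from 35026754 to 67333830 fragments, so counting error weighs mainly on the scarcest genes.

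Counts of all genes were fitted in edgeR 4.0.16 (R 4.3.3) with the filterByExpr filter, TMM factors, 1 mean per group, a robust quasi-likelihood test with 8 residual degrees of freedom and Benjamini-Hochberg adjustment over 18745 genes, all two-sided. CPM are counts over TMM-scaled totals. With 2 pooled libraries a group, the p-values rest on a spread shared across groups and genes. The procedure was tried on simulated counts in which every gene had the same spread, which cannot check calls that hang on single libraries. Alternatives were other filters, DESeq2 1.42.0 and its size factors, limma 3.58.1 on FPKM, other ways to choose transcripts, the compared groups alone, a replicate block and leaving out each library. The 10 genes and all gene lists were chosen with earlier results of these data known. List genes were named where they were among the 3 largest rises or falls of a list past the threshold in a comparison with day 0, provided the libraries did not overlap and the group with more RNA averaged at least 1 FPKM.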

Additional observations from a re-analysis of the deposited data

How the results depend on the processing

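Of 160 values (10 genes in 16 comparisons), 45 passed the threshold. Over 670 alternatives run on those 45 values, 613 kept direction and call, 57 lost the call and 0 reversed, and 30 of the 45 kept their call in all of them. Values without a call gained one in 30 cases. Counts between the genotypes depended most on the processing. With no filter, the genes called between PKR KO and WT were 63, 432, 63 and 208 on days 0, 1, 2 and 5 and 97 for the mean, instead of 4, 35, 0, 1 and 5. The genotype differences of days 1, 2 and 5 then gave 478, 19 and 156 genes instead of 32, 0 and 0. With no filter, 1 of the 10 genes, Trib3, was called between PKR KO and WT on day 1. DESeq2 gave 11, 199, 5 and 72 genes on the 4 days, 13 for the mean, and 214, 3 and 37 for the differences. The FPKM filter gave 0 on day 0, 14 on day 1 and 1 for the day 1 difference. In limma on log2(FPKM + 1) the counts were 0, 6 and 0 on days 0, 1 and 5, 2 for the mean, and 3 and 1 for the differences of days 1 and 5. On log2(FPKM + 0.1) they were 0, 3 and 0, 2 for the mean, and 0 for the day 1 difference. Summed isoforms gave 0 and 12 on days 0 and 1, 1 for the mean and 3 for the day 1 difference. The compared groups alone gave 331 and 6 on days 1 and 5, and 18 and 1 for the differences of days 1 and 5. The replicate numbers pair no libraries by the labels, and the correlation of deviations was over 0.1 in 3 of 28 pairs of groups. The replicate block changed the day 0 count to 0, added Atf3 on PKR KO day 2 (0.74, adjusted p = 0.0404) and Cebpb on PKR KO day 5 (-0.41, adjusted p = 0.0185), and moved no other count by over 1.5 times.

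Leaving out 1 library at a time, 4 to 7 of the 10 genes were called on WT day 2 and 2 to 4 from day 1 to day 2. The genes called were 4626 to 6053 on WT day 5 instead of 7406, with the lowest count without WT_D5 replicate 2. Between the genotypes they were 0 to 55, 4 to 31, 1 to 40 and 0 to 7 on days 0, 1, 2 and 5 and 2 to 29 for the mean. The genotype differences of days 1, 2 and 5 gave 0 to 376, 0 to 14 and 0 to 44, with 376 and 44 without WT_D0 replicate 1 and 14 without KO_D2 replicate 2. Using days 0, 1 and 5 only, an alternative chosen after seeing the data, the mean difference between the genotypes gave 5 genes and 0 of the 10. The list counts, list genes and correlations without the library labelled KO_D2 replicate 1 were also added after seeing the data. The cause of these changes was not tested. Trib3, with as few as 8 fragments in a library, and Chac1, with as few as 17, carry counting error in their low libraries. Libraries with more fragments also differed, as Chac1 did on PKR KO day 1 with counts of 195 and 96.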
